A study of Homo sapiens with 6 samples.

Results

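The clustered histone genes are mainly the replication-dependent genes for the linker histone H1 and the core histones H2A, H2B, H3 and H4. They were taken from the authors' deposited comparison by gene symbol, leaving out those named as pseudogenes, which gave 69 of the 28395 genes. The H1 class had 6 members, H2A 17, H2B 18, H3 13 and H4 15. The symbols also take in H4C16, the only member at 12p12, and whether each member depends on replication was not tested. To learn which messages differ after exposure to the ozone-treated oil, the study sequenced RNA of A375 cells, an established human melanoma line labelled WT. The cells were grown in DMEM with fetal bovine serum and treated for 6 h with 0.01% ozonated olive oil (OZO, 3 libraries) or with 0.01% olive oil, its precursor (OLO, 3 libraries, the control). No untreated cells are among the libraries, and the study describes its A375 transcriptome data as independent experiments, 3 per treatment.

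Core histones form the protein spool around which DNA is wound, and H1 sits where the DNA enters and leaves it. Cells make these proteins mainly in S phase, from many short genes without introns that stand in clusters. Their messenger RNAs usually end in a stem-loop instead of a poly(A) tail, and the stem-loop binding protein SLBP holds that structure during processing, translation and decay. Replication-independent histones such as H3-3B and H2AZ1 are made from polyadenylated messages throughout the cell cycle, which need not hold for every gene listed under that name below.

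The stem-loops are shown because they are the feature that sets these messages apart from nearly all others. The 16 bases were read from hg38 downstream of each stop codon, on the strand of the gene, with 6 bases on each side forming the stem and 4 the loop. Capitals mark the 5 positions at which members differ.

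The form of 40 members, of classes H1, H2A, H2B and H3: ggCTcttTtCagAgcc
The form of 10 members, all H4: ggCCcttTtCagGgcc
The form of 9 members, of classes H1, H2A, H2B and H3: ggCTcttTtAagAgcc
The form of H4C9, H4C12, H4C14 and H4C15: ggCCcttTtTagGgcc
H2AC11: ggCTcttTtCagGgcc
H2AC15: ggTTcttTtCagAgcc

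The motif searched held the letters these forms share in lower case, with any base at the capitals and at the base after the fifth capital. All 69 members held it within 150 bases after the stop codon. It began 23 to 68 bases after it, with a median of 36. The same search found it in 4 of 19977 other protein-coding genes (0.02%), H2AX among them, and in 1 of the 11 replication-independent histones, again H2AX. The second and the fifth capital pair with each other in the stem, as C with G in all 15 H4 members and as T with A or G in all members of the other classes. H2AC11 and H2AC15 had 5 Watson-Crick pairs and 1 G-T pair in the stem, and every other form had 6 Watson-Crick pairs.

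Most of these genes had few reads. In the deposited table the lowest mean level belongs to genes with no read in any library, from which a typical library (geometric mean) of 18409903 fragments follows. The size of each single library is unknown. At that depth 5 members (7012 of all 28395 genes) were unread, namely H2AC7, H2BC1, H3C11, H4C7 and H4C13. The annotated exons of H2AC7 overlap those of ENSG00000282988 on the same strand, and the RefSeq span of H3C4 contains that of H2AC7. How reads of such overlaps were counted is not given in the sources used here, so H2AC7 need not lack a message. A further 28 members had 3 or fewer implied reads per library in both groups, and 24 had more than 3 in at least 1 group but a mean under 10. The remaining 12 had a mean of 10 or more reads, against 48.5% of all genes. By class these were 1 of 6 H1, 3 of 17 H2A, 7 of 18 H2B, 0 of 13 H3 and 1 of 15 H4 members. Just inside that limit stood H2AC20 with 11.6 reads and H2BC8 with 12.3, and just outside it H4C12 with 9.55 and H2AC8 with 9.28. Implied reads are means on voom's log scale at the common library size.

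The level was concentrated in a few members. Summed over all 69, the mean was 1025 reads per library, which is 0.00557% of a library, and H2BC12 and H1-2 held 58.4% of it. The 11 replication-independent histones summed to 41994 reads, 41.0 times as many, and 9 of these 11 stood above every clustered gene. Their levels ran from 46.7 reads to 13087 reads, and none was unread. How the library kit and its input select polyadenylated RNA is not given in the sources used here, and its part in these low levels was not tested.

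**Figure D1:**
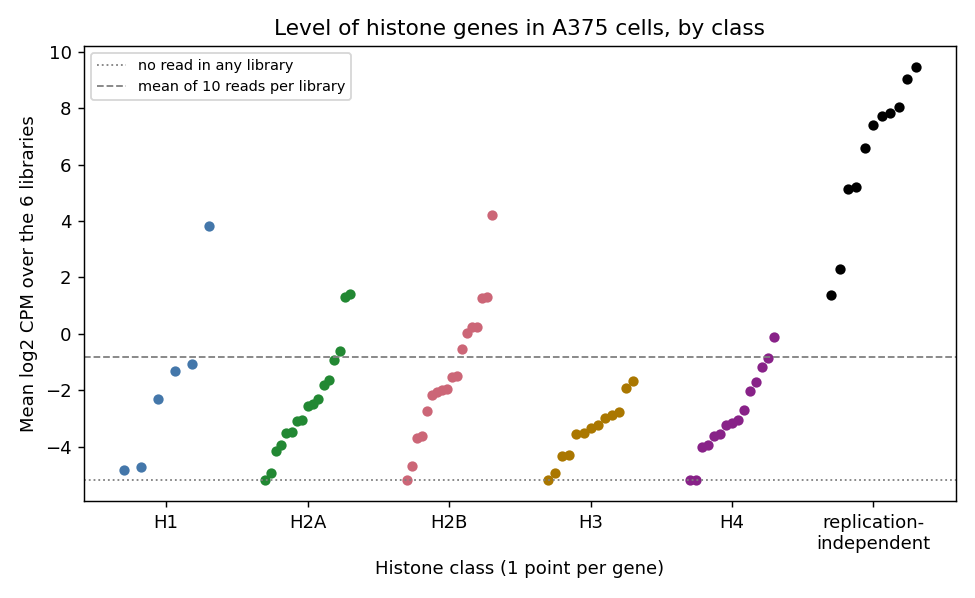
Mean log2 CPM over the 6 libraries (vertical axis) of each clustered histone gene by class, with the 11 replication-independent histones at the right. Each point is 1 gene, the dotted line marks genes with no read and the dashed line a mean of 10 reads. All 13 H3 members lie below the dashed line, and 7 of the 18 H2B members lie above it.

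H2BC12, which codes for an H2B protein, was the most highly read member. It lies at chr6:27138293-27146858 of GRCh38.p14 and had 356 implied reads per library in OLO and 324 in OZO. H1-2, a linker histone gene at 6p22, followed with 248 and 270. H2AC6 had 71.6 and 32.2, H2BC5 40.9 and 49.9, H2AC25 43.3 and 47.0, and H2BC21 51.5 and 37.2. Per kilobase of annotated transcript, and among members spanning 1000 bases or fewer, H1-2 stood first at a mean log2 level of 4.27. H2AC6 was at 2.35 and H2AC25 at 2.28, and H4C8 and H2BC11 were at 1.17 and 1.10. The deposited table gives no error of a level, so whether neighbours in this order differ could not be tested.

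Among the 8 members whose RefSeq gene spans more than 1000 bases, 5 had a mean of 10 or more reads, against 7 of the 61 shorter ones. They are H2BC12, H2BC5, H2BC4, H2BC18, H2BC21, H3C4, H3C6 and H4C15. GENCODE 44 lists a spliced transcript for 5 of these 8, besides the short histone message. Among the shorter members with a mean of 10 or more reads, H2AC6, H2AC25, H2BC11 and H4C8 have one as well. Which form was read is not given by the table.

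No clustered histone gene passed the test between OZO and OLO. In the authors' limma-voom test with Benjamini-Hochberg adjustment over all genes, 0 of 69 members had an adjusted p-value under 0.05, while 7.04% of all genes did. Among the 13773 genes with a mean of 10 or more reads 13.6% were called, 7.75% higher and 5.89% lower in OZO, and 0 of the 12 members at that level were. At an unadjusted p-value under 0.05 there were 8 members (11.6%), 4 in each direction, against 19.7% of all genes. In bulk RNA, fewer cells in S phase and less histone message per cell cannot be told apart.

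Among those 12 members, 6 were higher and 6 lower in OZO, with a median log2 fold change of -0.06. The median over all genes with a mean of 10 or more reads was -0.01. The 95% interval included 0 for 11 of the 12, and for 3 of the 12 it lay wholly within a 2-fold change in either direction. Given each standard error, the log2 change that would have reached the call ran from 1.27 for H4C8 to 2.83 for H2BC8. Smaller changes could therefore not have been called at this spread.

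**Figure D2:**
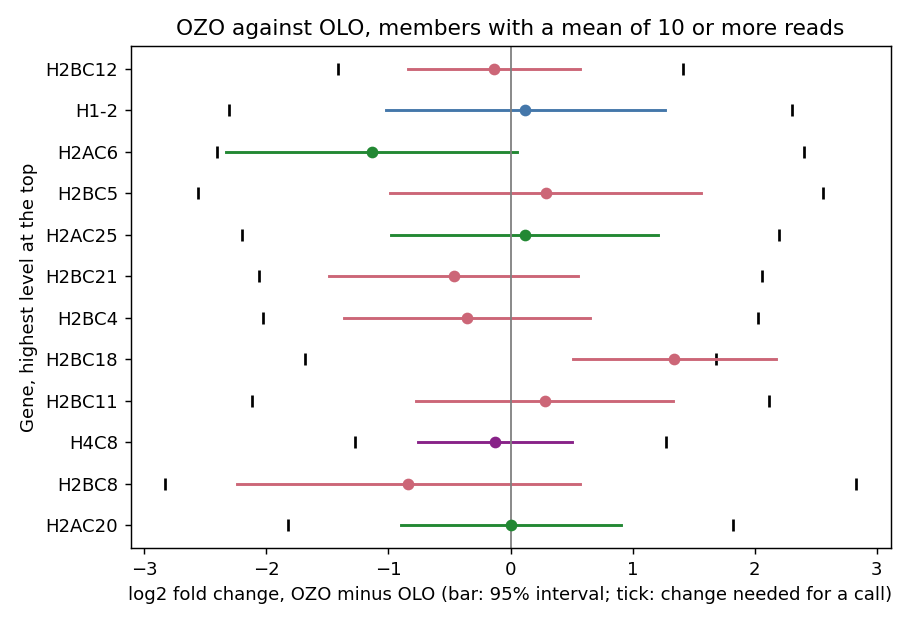
The log2 fold change, OZO minus OLO (horizontal axis), of the 12 members with a mean of 10 or more reads, ordered by level (vertical axis). Points are the deposited fold changes, bars their 95% intervals, ticks the change needed for a call, and colours the classes. H2BC18 is the member whose interval excludes 0, and no point lies beyond its ticks.

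Of the H1 class, H1-2 did not differ beyond its error, with a log2 fold change of 0.12 (SE 0.45, 95% interval -1.02 to 1.26, adjusted p = 0.869, limma-voom). H1-4 had 5.95 reads in OLO and 11.3 in OZO, and H1-3 had 7.31 and 6.62. H1-5 had 2.21 reads in OLO, under the floor of 3, and 4.47 in OZO, and no fold is given. The unadjusted p-values of H1-4 and H1-5 were under 0.05, at 0.0296 and 0.0445, and their adjusted values were 0.182 and 0.236 (limma-voom). H1-1 and H1-6 were at or under 3 reads in both groups. Summed over the 6 H1 members there were 264 implied reads in OLO and 293 in OZO.

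H2A and H2B pair in the nucleosome. Of the 3 H2A members with a mean of 10 or more reads, H2AC6 had the largest difference, 71.6 reads in OLO against 32.2 in OZO. Its log2 fold change was -1.14 (SE 0.47, 95% interval -2.33 to 0.06), with an unadjusted p of 0.0580 and an adjusted p of 0.249 (limma-voom). The annotated exons of H2AC6 overlap those of ENSG00000291336 on the same strand, so strand cannot separate reads of the overlap. H2AC25, at 1q42, was at 0.11 (SE 0.43, adjusted p = 0.869, limma-voom), and H2AC20, at 1q21, at 0.00 with 11.5 and 11.6 reads. The 17 H2A members summed to 159 reads in OLO and 130 in OZO.

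Of the 7 H2B members with a mean of 10 or more reads, H2BC18 stood farthest from 0. It had 13.0 implied reads in OLO and 33.7 in OZO, a log2 fold change of 1.34 (SE 0.33, 95% interval 0.51 to 2.18), which is 2.54-fold. The unadjusted p was 0.00902 and the adjusted p 0.0872 over all genes (limma-voom), so it missed the call. It passed where p was adjusted over the 13773 genes with a mean of 10 or more reads, at 0.0458, a setting that called 20.6% of those genes, and at a threshold of 0.1, which called 11.1% of all genes. Its annotated exons overlap those of FCGR1A, an immunoglobulin receptor gene on the opposite strand, which had 2.30 reads in OLO and 6.84 in OZO (adjusted p = 0.198, limma-voom). The use of strand in counting is not given in the sources used here, so reads of this pair cannot be told apart. Of the 100-base stretches of its canonical GENCODE transcript, which has 492 bases, 56.0% were unique, that is, found at no other place in hg38. Its other transcripts were not searched.

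Of the 7 H2B members with a mean of 10 or more reads, H2BC8 had the lowest log2 fold change, -0.84 (SE 0.55, adjusted p = 0.314, limma-voom), with 16.6 reads in OLO and 9.06 in OZO. H2BC12 was at -0.13 (SE 0.27), H2BC5 at 0.29 (SE 0.50) and H2BC21 at -0.47 (SE 0.40), and the 95% interval of each included 0. H2BC14 had 7.08 reads in OLO and 2.36 in OZO, under the floor, with an adjusted p of 0.187 (limma-voom). H2BC10 had 2.30 and 0.307 reads, both under the floor, and no fold is given for either gene. The 18 H2B members summed to 562 reads in OLO and 519 in OZO.

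No H3 member had a mean of 10 or more reads, and none had an unadjusted p-value under 0.05. H3C6 was highest, with 7.53 reads in OLO and 3.6 in OZO (adjusted p = 0.249, limma-voom). H3C4 had 3.42 and 5.44 reads, and H3C10 1.29 and 3.59. The 13 members summed to 22.9 reads in OLO and 22.4 in OZO. For H3C6 a log2 change of 2.08 would have been needed for a call.

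H4C8 was the H4 member with a mean of 10 or more reads, 17.1 in OLO and 15.7 in OZO. Its log2 fold change was -0.13 (SE 0.25, 95% interval -0.76 to 0.51, adjusted p = 0.764, limma-voom). The annotated exons of H4C8 overlap those of ENSG00000289447 on the opposite strand. H4C12 had 7.37 and 12.3 reads with an unadjusted p of 0.0475, but only 8.68% of its 100-base stretches were unique. H4C5 had 6.54 and 8.90. H4C4 had 3.67 reads in OLO and 0.674 in OZO (adjusted p = 0.198, limma-voom), and H4C2 had 2.04 and 0.0639, both under the floor. The 15 members summed to 55.4 reads in OLO and 54.0 in OZO. These sums have no error, since values per library are not in the analysis.

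Near-identical copies limit what single genes can say. Stretches were taken from the canonical transcript of each member. In 6 members, H2AC18, H2AC19, H3C14, H3C15, H4C14 and H4C15, no 100-base stretch was unique, and in 10 members under 50% was. How reads matching several genes were counted is not given in the sources used here. None of those 10 had a mean of 10 or more reads. In 51 members all stretches were unique, and 8 of these had 10 or more reads.

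The spread of most members with a mean of 10 or more reads lay above the median of genes at their level. Against genes within 0.25 log2 CPM of the same mean, 9 of the 12 had a standard error above the median of their window. H1-2 had 0.45 against a window median of 0.13, and 4.51% of 864 genes had one as large. H2BC12 had 0.27 against 0.12, with 8.81% of 953 genes as large. H2BC18, H4C8 and H2AC20 lay below their window's median. Over the 12 members, the share of window genes with a standard error as large ran from 4.51% to 83.6%. Which libraries carried this spread could not be examined.

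**Figure D3:**
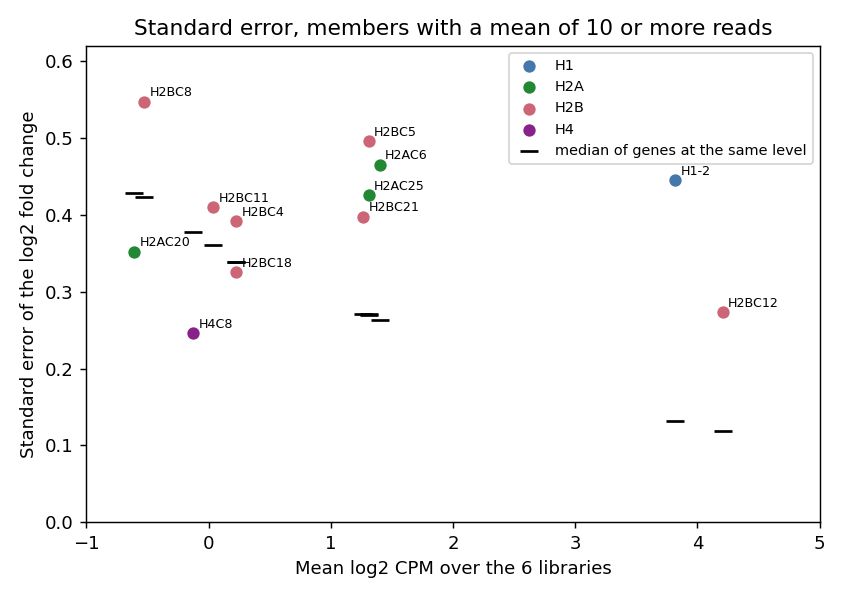
Standard error of the log2 fold change (vertical axis) against mean log2 CPM (horizontal axis) of the 12 members with a mean of 10 or more reads, coloured by class. Black dashes mark the median standard error of genes at the same level, and 9 of the 12 points lie above theirs.

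Many H2A and H2B genes stand head to head and share the DNA between their starts. Among the 64 members with a promoter entry there were 11 such pairs, with starts 194 to 248 bases apart. The 5 members without an entry could not be paired. One of them is H2AC12, with 1.67 mean reads, which lies next to H2BC12, with 339. Of the 11 pairs, the H2B partner was read more in 7 and the H2A partner in 4. These 7 include H2AC7 and H2BC7, where H2AC7 was unread and its exons overlap another gene. Only 2 pairs had both partners at 10 or more reads, and in H2AC1 and H2BC1 the partners had 0.1005 and 0 reads. H2AC6 had 48.1 mean reads beside 21.03 for H2BC4, and H2AC25 had 45.1 beside 3.87 for H2BC26. The annotated exons of H2BC4 overlap those of HFE, a gene on the opposite strand with 192 mean reads. H2AC20 had 11.6 beside 43.8 for H2BC21, and H2AC11 had 1.73 beside 18.4 for H2BC11. In the 2 pairs with both partners at 10 or more reads, log2 fold changes were -1.14 and -0.36 for H2AC6 and H2BC4, and 0.00 and -0.47 for H2AC20 and H2BC21. None of these passed the test.

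**Figure D4:**
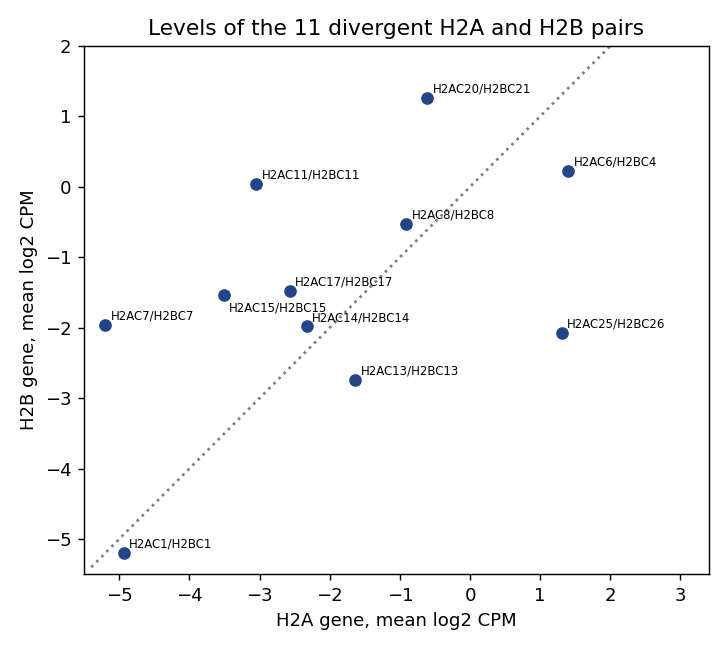
Mean log2 CPM of the H2B gene (vertical axis) against that of its divergent H2A gene (horizontal axis), 1 point per pair. The 11 pairs are those found among members with a promoter entry. The dotted line marks equal levels, and 7 points lie above it and 4 below.

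Promoters are shown for the most read member, for the members with the largest fall and rise among those with a mean of 10 or more reads, and for an H4 gene without a CCAAT box. They are the 120 bases before the annotated start, from RefSeq on GRCh38.p14 and on the strand of the gene. Capitals mark the CCAAT box, the TATA box (TATAAA) and the octamer (ATTTGCAT), on either strand.

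H2BC12, chr6:27146859-27146978, minus strand: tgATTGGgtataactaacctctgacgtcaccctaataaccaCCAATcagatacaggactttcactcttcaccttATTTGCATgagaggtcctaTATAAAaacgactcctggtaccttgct
H2AC6, chr6:26124052-26124171, plus strand: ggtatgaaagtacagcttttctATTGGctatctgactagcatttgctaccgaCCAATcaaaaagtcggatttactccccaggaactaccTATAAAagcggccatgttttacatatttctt
H2BC18, chr1:149812371-149812490, minus strand: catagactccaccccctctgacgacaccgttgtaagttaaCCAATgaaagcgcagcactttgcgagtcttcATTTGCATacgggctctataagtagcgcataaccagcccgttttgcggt
H4C8, chr6:26285535-26285654, minus strand: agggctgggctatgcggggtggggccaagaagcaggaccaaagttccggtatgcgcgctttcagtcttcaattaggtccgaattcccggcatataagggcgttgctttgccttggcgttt

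The motifs were searched on both strands in windows from 250 bases before to 50 after the start, and 64 members matched an entry. CCAAT was in 84.4% of the members and 35.7% of 27305 promoters. It was in every matched H1, H2A, H2B and H3 member and in 3 of 13 H4 members. TATAAA was in 65.6% of the members and 11.95% of all promoters. The octamer ATTTGCAT was in 40.6% of the members against 1.80% of all promoters, namely in 11 of 16 H2A, 14 of 18 H2B, 1 of 11 H3, 0 of 6 H1 and 0 of 13 H4 members. The H3 member with the octamer, H3C4, has the same annotated start as H2AC7 and so the same window, which is counted in both classes. Divergent partners also share part of these windows and are not independent. A match is only a run of letters.

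Of 17 factors for histone mRNA transcription, processing and decay, 1 was higher in OZO and 0 lower, beside 7.75% and 5.89% of all genes with a mean of 10 or more reads. It was HINFP, a transcription factor of H4 genes, with 266 reads in OLO and 473 in OZO (log2 fold change 0.83, SE 0.14, adjusted p = 0.0341, limma-voom). NPAT, the coactivator of histone transcription, had 1180 and 1536 (0.38, adjusted p = 0.0878, limma-voom). SLBP had 2704 and 2890 (0.10, SE 0.11, adjusted p = 0.577, limma-voom).

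Of 11 replication-independent histones 0 were higher and 2 lower, beside 7.75% and 5.89% of all genes with a mean of 10 or more reads. CENPA, the centromeric H3, fell by 0.72 on the log2 scale (SE 0.10, adjusted p = 0.0236, limma-voom), from 829 to 502 reads. H2AX, the variant marked at DNA breaks, fell by 0.55 (SE 0.09, adjusted p = 0.0341, limma-voom), from 814 to 555 reads. H3-3B was at -0.04 and H2AZ1 at -0.03. H2AX is the variant with the stem-loop motif described above. Whether CENPA and H2AX are made throughout the cell cycle in these cells was not tested.

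Of 19 histone chaperones, beside 7.75% higher and 5.89% lower of all genes with a mean of 10 or more reads, 2 were higher, NASP at 0.28 and NAP1L1 at 0.24, and 2 lower, SUPT16H at -0.31 and HIRA at -0.42. Of 25 genes of the G1/S transition and DNA replication 0 were higher and 4 lower, beside the same 7.75% and 5.89%, namely the helicase subunits MCM6 at -0.35 and MCM3 at -0.44, GINS2 at -0.38 and E2F2 at -1.16. Among lineage markers, SOX10 had 1265 reads in OLO and 667 in OZO, MITF 539 and 461, PAX3 260 and 342 and MLANA 28.6 and 46.8. AXL was the highest of them at 5557 and 4348, S100B had 60.6 and 42.9 and S100A1 57.0 and 37.7. TYRP1 had 11.3 and 10.8, PMEL 6.06 and 5.45 and DCT 3.93 and 5.71, while TYR was unread. No marker of melanocytes, keratinocytes, fibroblasts, immune or endothelial cells was called, and KRT1, CD3E and CDH5 were at or near 0. Of the 11 markers of the other cell types 4 had a mean of 10 or more reads, namely KRT14 (78.4 in OLO and 76.6 in OZO), LUM (83.1 and 92.4), CD68 (501 and 726) and PECAM1 (22.7 and 16.7). Their part in the histone values was not tested.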

How the data were processed

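Strand-specific libraries of A375 RNA, 3 OLO and 3 OZO, were sequenced in paired-end mode. According to the study's methods the authors aligned reads to hg38 with HISAT2 2.1.0, counted them with featureCounts 2.1.1 and compared groups with limma-voom 3.58.1. Normalization factors, filters, multi-mapped reads and strand in counting are not given in the sources used here. Deposited on the log2 scale are each gene's fold change and its mean log2 CPM, voom having added 0.5 to each count. As a score the authors deposited the moderated t, with its p-value and adjusted p-value. These are the authors' own statistics. No test across libraries was run and 0 columns of other per-sample values were left out.

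A standard error was the fold change divided by its t, and 95% intervals used the degrees of freedom linking t and p (5.02 to 5.24). The direction, OZO minus OLO, was read from the comparison's name. Implied reads follow from the mean level, the fold change and the common library size. They are approximate because voom weights libraries. A group at 3 or fewer reads was at the floor, which covers counting error only, and no fold is given against it. Unread genes carry a log2 fold change of 0.33, which corresponds to OLO libraries 1.26 times as large, and pulls genes of few reads toward that value. Coordinates are RefSeq GRCh38.p14, and stop codons and exons come from GENCODE 44. Python 3.11.15, numpy 2.4.6, pandas 2.3.3 and scipy 1.17.1 were used, and the derivations were tested on simulated data. Members and lists were chosen with earlier results of these data known. Named genes were, in each class, the 3 members with the most reads and the largest rise and fall among those with 10 or more, SLBP, NPAT, H2AZ1, H2AX and H3-3B, and up to 5 called genes per other list. One further gene under this rule is left out. Members named for a p-value under 0.05, a pair or an overlap, and the markers of other cell types given with values, were picked after values were seen.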

Additional observations from a re-analysis of the deposited data

How the results depend on the processing

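No paired analysis was possible because the deposited table holds no values per library, and for the same reason leaving out each library, another normalization and another count test were not run. The number of clustered histone genes called was 0 as deposited and stayed at 0 with fold changes centred on either median. An adjusted p under 0.01, a 2-fold minimum and leaving out near-identical members can only remove calls. Their count of 0 was therefore fixed in advance and is no check. The count was 1 (H2BC18) at an adjusted p under 0.1 and with adjustment over genes with a mean of 10 or more reads. At an unadjusted p under 0.05 it was 8. The median log2 fold change of the members, -0.06, ranged from -0.25 with centring on all genes to -0.01 with a mean of 50 or more reads. Only H2BC12 and H1-2 had that many reads, and their changes had opposite signs. Over all members with a read the class medians were 0.49 for H1 and -0.46 for H2B. With 10 or more reads they were 0.12 for H1, which is H1-2 alone, and -0.13 for the 7 H2B members. The medians over all members with a read take in 2 H1 and 3 H2B members with both groups at the floor. They are therefore not read as a shift of a class. No error of a median was available to judge these shifts. Centring on the median of all genes, 0.19, counts unread genes, and with it 3 of the 12 members were higher and 9 lower, against 6 and 6 as deposited, and H1-2 changed sign to -0.066. Chosen after seeing the data, the lists were counted again. At an adjusted p under 0.1, which called 11.1% of all genes, 4 of 17 histone mRNA factors and 7 of 25 G1/S genes were called. With adjustment over genes with 10 or more reads, which called 20.6% of those genes, the counts were 3 and 7. Centred on all genes, replication-independent histones gave 4 of 11, histone mRNA factors 7 and the G1/S genes 10. That centring moves every gene by the same amount. The share of all genes called under it was not computed, so these counts are not a result about the lists.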

Other observations

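Of the 69 clustered histone genes 57 had a mean under 10 reads. H2BC10 and H4C2, both with unadjusted p-values under 0.05, had implied means of 1.002 and 0.698 reads per library. Among the members with 10 or more reads, 9 of 12 had a standard error above the median of genes at their level.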
